A study of Homo sapiens with 4 samples.

Results

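The tripartite motif (TRIM) family is a group of ubiquitin ligase genes, and 74 of the 58676 genes counted belong to it. The members are taken by name. They are the protein-coding genes whose symbol is TRIM followed by a number and at most 1 letter. They were split into 7 members known to be induced by interferon (TRIM5, TRIM14, TRIM21, TRIM22, TRIM25, TRIM34 and TRIM38) and 67 others. The list of 7 need not hold every inducible member. RNA was sequenced from U2OS cells, an established human osteosarcoma line, in 4 libraries. In 2 libraries the cells had been given a single-domain antibody (sdAb) against MN1, and in the other 2 a control sdAb. Such an antibody is a single variable domain. No dose, exposure time or route into the cells is stated, nor whether the sdAb carries an Fc part. Nothing says that replicate libraries are separate cultures, so the p-values cover only the spread between 2 libraries, and that spread may be technical.

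A typical TRIM protein carries a RING finger that passes ubiquitin to a target, then B-box domains and a coiled coil through which it forms dimers. A further domain at the end of the protein, most often a PRY-SPRY domain, binds the target and sets the class. Several members restrict viruses or adjust the sensing of foreign nucleic acid, and some of these are themselves switched on by interferon. Others have no link to infection and act in transcription, at microtubules or in muscle.

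Library totals ran from 15740268 to 16816893 counts, and 3 counts correspond to 0.174 to 0.194 CPM, for counting error only. Levels are given in CPM, the read count relative to library size after TMM scaling in edgeR. Fold changes are anti-MN1 over control, with standard errors (SE) and p-values from edgeR's quasi-likelihood test, adjusted by Benjamini-Hochberg over all 17524 genes tested. The test draws the spread of each gene strongly toward that of all genes (median prior degrees of freedom 209). An SE is thus not the gene's own replicate spread alone. On the first principal component, with 73.5% of the variance, the groups lay apart. All 6 osteosarcoma or mesenchymal markers were counted in every library, and of these COL1A1 fell 3.04-fold, SPARC 2.25-fold and RUNX2 1.79-fold, CDH2 rose 1.09-fold, and VIM and CDH11 did not pass. Of the 5 epithelial markers, KRT8 stood at 804 and 810 CPM in anti-MN1 libraries and 780 and 773 CPM in control libraries. KRT8 did not pass, KRT18 rose 1.19-fold, and CDH1, at most 1.56 CPM, fell 3.07-fold. EPCAM, at most 3.13 CPM, did not pass, and ESRP1, at most 0.581 CPM, was not tested. The 5 endothelial markers were at most 4.84 CPM each. Of these TEK fell 1.77-fold and VWF 2.27-fold, PECAM1 did not pass, and CDH5 and KDR were not tested. The part of these shifts in the TRIM results was not tested. The 6 blood markers together reached at most 1.02 CPM in any library. MN1 itself stood at 41.8 and 43.7 CPM in anti-MN1 libraries and at 52.6 and 52.5 CPM in control libraries, a log2 fold change of -0.30 ± 0.07 (SE; edgeR adjusted p = 0.000306).

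Of the 74 members, 50 had enough counts to be tested. Among these 13 rose, 12 fell and 25 did not pass an adjusted p of 0.05. This is close to the background, where 23.7% of all tested genes rose and 21.6% fell, and among protein-coding genes 28.4% and 22.2%. The members' shares were 26% and 24%. In bulk RNA, fewer cells with a transcript and less of it per cell cannot be told apart. Both anti-MN1 libraries lay above both controls for 20 of the 50 members and below both for 18, beside 35.3% and 35.4% of all tested genes. Most changes were small, since 17 of the 25 called members changed less than 1.5-fold. At 1.5-fold or more, 2 members rose and 6 fell, beside 5.32% and 11.8% of all tested genes. At 2-fold or more, 3 members fell and the other called members changed less, beside 6.84% of all tested genes that fell and 1.91% that rose that far. Of these 3, TRIM48 and TRIM49C passed the filter on low counts through the control libraries alone, so a fall was the direction the filter admitted. Of the 50 tested members, 45 passed it in every library. The split of all called genes depended on the scaling, with 52.3% of them higher under TMM against 38.0% with factors from the upper quartile. Among the 67 other members that scaling called 5 higher in place of 10. Summed over all 74 members, the level was 2270 and 2271 CPM in anti-MN1 libraries, against 2055 and 2030 CPM in control libraries. Abundant genes weigh most in this sum, and TRIM16L alone averaged 207 CPM in anti-MN1 against 115 CPM in control libraries. The median log2 fold change of the 50 tested members was 0.00.

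**Figure D1:**
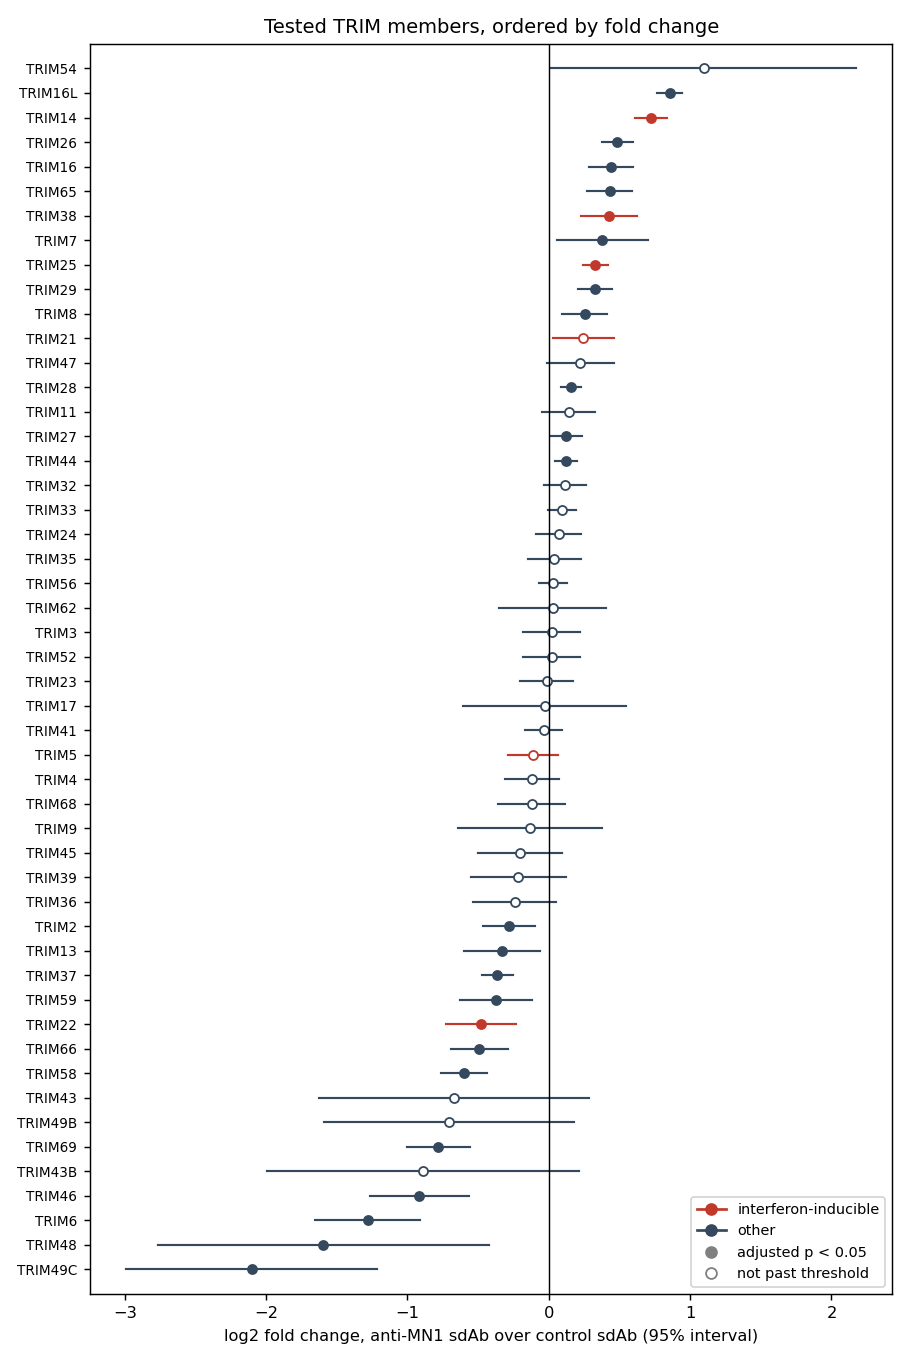
The log2 fold change of each of the 50 tested TRIM genes is plotted with its 95% interval (1.96 SE each side), ordered by value. Red marks the interferon-inducible genes, filled points passed an adjusted p of 0.05, and the red points run from -0.48 for TRIM22 to 0.72 for TRIM14.

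At 5 CPM and above, direction went with level in the family as in the whole table. Of the 6 tested members with a mean of 100 CPM or more, 4 rose and 2 did not pass, beside 51.1% of protein-coding genes of that level that rose and 18.8% that fell. Of the 22 members at 20 to 100 CPM, 8 rose and 4 fell, beside 35.5% and 19.6%. Of the 14 at 5 to 20 CPM, 1 rose and 6 fell, beside 17.6% and 27.6%. Of the 5 at 1 to 5 CPM, 1 fell and 4 did not pass, beside 7.68% higher and 26.0% lower. Of the 3 below 1 CPM, 1 fell and 2 did not pass, beside 4.22% higher and 20.4% lower. In each range from 5 CPM up the members leaned the same way as other protein-coding genes. Below 5 CPM the only called members were TRIM49C and TRIM48. Both passed the filter on low counts through the control libraries alone. A fall was thus the direction the filter admitted, and no lean can be read there.

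The 24 untested members had counts at or near 0. For 7 of them all 4 libraries were at 0 (TRIM34, TRIM40, TRIM50, TRIM64, TRIM64C, TRIM75 and TRIM77), and the other 17 had at most 35 counts over the 4 libraries. The muscle genes TRIM55 and TRIM63 were among these, as was TRIM71, known from stem cells.

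The interferon-inducible genes did not move as a block. Of the 7, 3 rose (TRIM14, TRIM25 and TRIM38), TRIM22 fell, TRIM5 and TRIM21 did not pass the threshold, and TRIM34 had no count. Over all tested genes 23.7% rose and 21.6% fell. The median log2 fold change of the 6 tested genes was 0.29, beside -0.02 for the 44 other tested members and -0.00 for all tested genes. Under upper-quartile scaling these medians were 0.20, -0.11 and -0.09. The 7 genes together summed to 345 and 336 CPM in anti-MN1 libraries and to 267 and 269 CPM in control libraries.

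The promoters of these genes are shown next, since interferon-stimulated factors bind a sequence known as the interferon-stimulated response element. Its core was searched as GAAA, any 2 bases and GAAA again, or on the other strand TTTC, any 2 bases and TTTC, from 250 bases before the transcription start to 50 bases after it. The promoter table (RefSeq, GRCh38.p14) held 77 promoters of 58 members. The core was found in 4 of the 6 interferon-inducible genes with a promoter in the table (TRIM5, TRIM14, TRIM21 and TRIM34) and in 6 of 52 other members. Counted by promoter, it was in 4 of 7 and in 6 of 70 (57.1% and 8.57%), beside 3.57% of all 35116 promoters in the table. Capitals mark the core in the sequences below, written 5′ to 3′ on the strand of the gene. TRIM14 and TRIM26 are shown because they rose, TRIM21 for its overlapping pair of cores, and TRIM5 and TRIM69 because they hold the core and did not rise.
TRIM14: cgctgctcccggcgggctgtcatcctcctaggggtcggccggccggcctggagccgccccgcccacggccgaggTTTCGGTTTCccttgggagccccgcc
TRIM26: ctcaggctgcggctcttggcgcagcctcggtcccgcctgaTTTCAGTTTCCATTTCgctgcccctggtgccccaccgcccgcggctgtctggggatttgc
TRIM21: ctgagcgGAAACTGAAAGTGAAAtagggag
TRIM5: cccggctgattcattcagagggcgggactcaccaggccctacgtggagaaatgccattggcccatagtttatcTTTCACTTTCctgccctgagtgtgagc
TRIM69: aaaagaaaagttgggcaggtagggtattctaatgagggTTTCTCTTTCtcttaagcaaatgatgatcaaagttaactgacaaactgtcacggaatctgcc

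These stretches lie at chr9:98119223-98119322 (TRIM14, minus strand), chr6:30213541-30213640 (TRIM26, minus), chr11:4393663-4393692 (TRIM21, minus), chr11:5685075-5685174 (TRIM5, minus) and chr15:44736428-44736527 (TRIM69, plus). The core began 26 bases before the start in TRIM14 and 27 before it in TRIM5. In TRIM26 the overlapping pair began 194 and 188 bases before the start, and in TRIM21 the pair began 18 and 24 bases into the transcript. A match is a description of the letters and does not show a bound site. Genes with the core went both ways, as TRIM14, TRIM26, TRIM16 and TRIM44 rose and TRIM69 and TRIM2 fell. TRIM2 held it in only 1 of its promoters. TRIM25 and TRIM38 rose and held no core. A stricter form, GAAA, any base, T and GAAA, was in 0.803% of all promoters in the table. Among the members TRIM5, TRIM21, TRIM26 and TRIM34 held it. Of these TRIM26 rose, TRIM5 and TRIM21 did not pass and TRIM34 had no count.

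TRIM14 (ENSG00000106785, chromosome 9, 98069275 to 98119212, GRCh38) showed the largest change of the interferon-inducible genes. It lacks a RING and serves as an adaptor at mitochondria in signalling from RNA sensors. Its level was 102 and 99.8 CPM in anti-MN1 libraries, against 63.1 and 59.3 CPM in control libraries. The groups lay far apart and the libraries of each were close. The rise was 1.65-fold (log2 0.72 ± 0.06, SE; edgeR adjusted p = 1.90e-25). It was the only interferon-inducible member past a test against a change of 1.5-fold.

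TRIM25 (ENSG00000121060, chromosome 17, 56836387 to 56914080) attaches ubiquitin chains in the RIG-I pathway and is a cofactor of the zinc finger antiviral protein. It had 147 CPM in both anti-MN1 libraries, against 116 and 118 CPM in control libraries. The rise was 1.26-fold (log2 0.33 ± 0.05, SE; edgeR adjusted p = 1.87e-10). TRIM38 (ENSG00000112343, chromosome 6, 25962802 to 25991226), known for adjusting nucleic acid sensing and Toll-like receptor signalling, had 30.3 and 25.2 CPM in anti-MN1 libraries and 21.0 and 20.3 CPM in control libraries. The anti-MN1 libraries differed more from each other here, and the lower of them still lay above both controls. The rise was 1.34-fold (edgeR adjusted p = 0.000155).

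TRIM21 (ENSG00000132109, chromosome 11, 4384897 to 4393696) is the cytosolic receptor for the Fc part of antibodies. It had 20.7 and 22.7 CPM in anti-MN1 libraries, against 17.4 and 19.1 CPM in control libraries. The groups did not overlap, but the log2 fold change of 0.24, with a 95% interval of 0.03 to 0.46 before adjustment, did not pass (edgeR adjusted p = 0.0562). Without anti-MN1 replicate 1 it passed at 0.32 (adjusted p = 0.0407). Wherever 1 library is left out, here and below, the lone library of its group is assumed to vary like those of the other group.

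TRIM5, TRIM22, TRIM34 and TRIM6 lie side by side on the short arm of chromosome 11. TRIM5 (ENSG00000132256, chromosome 11, 5663557 to 5938619), which recognises retroviral capsids, had 32.5 and 28.6 CPM in anti-MN1 libraries, against 34.1 and 32.0 CPM in control libraries. The groups overlapped, and the interval of its log2 fold change ran from -0.29 to 0.06 (edgeR adjusted p = 0.317). TRIM22 (ENSG00000132274, chromosome 11, 5689689 to 5737089), an antiviral relative, had 12.9 and 12.1 CPM in anti-MN1 libraries and 15.2 and 19.6 CPM in control libraries. The controls differed by more than the anti-MN1 libraries did. TRIM22 fell 1.40-fold (log2 -0.48 ± 0.13, SE; edgeR adjusted p = 0.00065). Without control replicate 2 the log2 value was -0.28 and the call was lost (adjusted p = 0.161).

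TRIM34 had 0 counts in all 4 libraries. The read-through gene TRIM6-TRIM34 covers 83.0% of its exonic bases on the same strand and also had 0 counts. Reads from shared exons may have been left uncounted, which was not tested, so the 0 sets no upper limit on the level of TRIM34. TRIM6 (ENSG00000121236, chromosome 11, 5596109 to 5612958), which makes free ubiquitin chains that aid interferon signalling, fell furthest of this cluster. It had 4.29 and 3.75 CPM in anti-MN1 libraries, against 10.3 and 9.26 CPM in control libraries. The fall was 2.43-fold (edgeR adjusted p = 1.25e-09), and 29.3% of its exonic bases are shared with the read-through gene.

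The wider neighbourhoods were not alike for the members of chromosomes 11 and 6. Between 4 and 9 Mb on chromosome 11, 3 of 7 tested members fell (TRIM6, TRIM22 and TRIM66) and the other 4 did not pass. The 38 other tested genes there had 6 higher, 6 lower and a median log2 fold change of -0.01. Between 25 and 31 Mb on chromosome 6 lies the extended histocompatibility region. Of 4 tested members there, 3 rose (TRIM38, TRIM26 and, narrowly, TRIM27 at an edgeR adjusted p of 0.0488) and TRIM39 did not pass. The 106 other tested genes there had 14 higher, 35 lower and a median of -0.28. Among all tested genes 23.7% rose and 21.6% fell, and the members in each region are few.

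**Figure D2:**
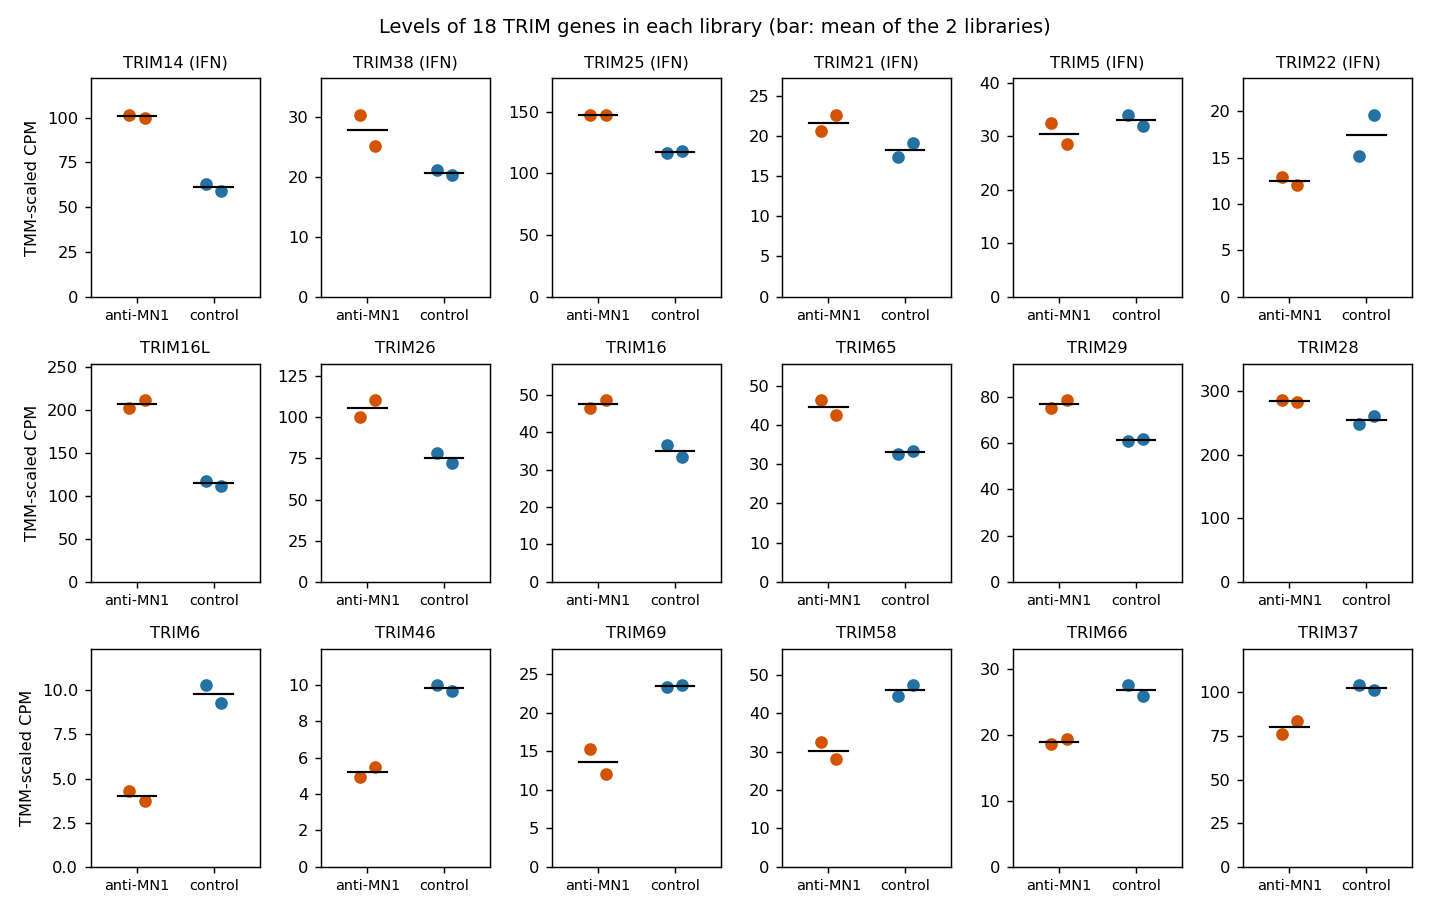
TMM-scaled CPM of 18 TRIM genes is shown in each library, with anti-MN1 libraries left of control libraries, a bar at the mean of the 2 libraries and every axis starting at 0. The top row holds the 6 counted interferon-inducible genes, the middle row other genes that rose and the bottom row other genes that fell, with TRIM14 near 101 against 61.2 CPM and TRIM6 near 4.02 against 9.78 CPM.

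Among the members outside the interferon-inducible list, 10 rose and 11 fell of 44 tested. These shares of 22.7% and 25% lie near the 23.7% and 21.6% of all tested genes. TRIM16L (ENSG00000108448, chromosome 17, 18697998 to 18736118), a paralogue of TRIM16, had the largest called rise of the family. It had 202 and 212 CPM in anti-MN1 libraries, against 117 and 112 CPM in control libraries. The groups lay well apart at 1.81-fold (log2 0.85 ± 0.04, SE; edgeR adjusted p = 2.19e-46). TRIM16 itself, a RING-less gene that responds to proteotoxic and oxidative stress, had 46.4 and 48.6 CPM in anti-MN1 libraries and 36.7 and 33.4 CPM in control libraries, a 1.36-fold rise. Windows of 50 bases found in other genes made up 45.2% of the TRIM16L and 66.7% of the TRIM16 transcript, so the division of reads between the pair is uncertain.

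TRIM26, a PRY-SPRY gene known to adjust interferon induction, had 101 and 111 CPM in anti-MN1 libraries, against 78.6 and 72.4 CPM in control libraries. It rose 1.40-fold (edgeR adjusted p = 1.03e-14) with clear separation of the groups. TRIM65, which attaches ubiquitin to the RNA sensor MDA5, had 46.4 and 42.7 CPM in anti-MN1 libraries and 32.6 and 33.5 CPM in control libraries, a 1.35-fold rise (edgeR adjusted p = 1.87e-06). TRIM29, a RING-less gene of epithelia, had 75.5 and 78.9 CPM in anti-MN1 libraries, against 61.1 and 61.8 CPM in control libraries, a 1.26-fold rise. TRIM26, TRIM65, TRIM29 and both TRIM16 genes kept their call in each alternative except the test against 1.5-fold, where only TRIM16L passed.

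The remaining 5 rises were smaller or less stable. TRIM28, the corepressor also known as KAP1, had 286 and 282 CPM in anti-MN1 libraries, against 249 and 261 CPM in control libraries. TRIM44, which carries a zinc finger like that of some deubiquitinases, had 228 and 215 CPM in anti-MN1 libraries and 209 and 197 CPM in control libraries. TRIM8, a regulator of NF-kB signalling, had 42.3 and 45.7 CPM in anti-MN1 libraries and 33.7 and 40.1 CPM in control libraries. In none of these did the groups overlap, yet the log2 fold changes were only 0.16, 0.12 and 0.25, and all 3 calls were lost under upper-quartile scaling. TRIM8 also lost its call without anti-MN1 replicate 2 (0.20) or control replicate 1 (0.14), and TRIM44 without anti-MN1 replicate 1 (0.09) or control replicate 2 (0.08). TRIM27 had 92.5 and 94.5 CPM in anti-MN1 libraries, against 86.1 and 85.3 CPM in control libraries. TRIM7, known for binding glycogenin, had 9.79 and 9.50 CPM in anti-MN1 libraries and 6.70 and 8.11 CPM in control libraries. Both passed narrowly, at edgeR adjusted p-values of 0.0488 and 0.0491, and both calls were lost in most alternatives. TRIM27 lost its call without any 1 library, at 0.12 to 0.15 on the log2 scale, and TRIM7 without control replicate 1 (0.25), anti-MN1 replicate 1 (0.36) or anti-MN1 replicate 2 (0.41).

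The falls included genes of several functions. TRIM46 (ENSG00000163462, chromosome 1, 155173787 to 155184971), which bundles microtubules at the start of the axon, had 4.92 and 5.49 CPM in anti-MN1 libraries, against 9.99 and 9.67 CPM in control libraries. The libraries of each group agree closely and the fall was 1.89-fold (log2 -0.92 ± 0.18, SE; edgeR adjusted p = 3.36e-06). TRIM69, a microtubule-bound gene with antiviral activity, had 15.2 and 12.0 CPM in anti-MN1 libraries and 23.3 and 23.6 CPM in control libraries, a 1.72-fold fall. TRIM58, known for degrading dynein in red cell precursors, had 32.4 and 28.0 CPM in anti-MN1 libraries, against 44.5 and 47.3 CPM in control libraries, a 1.52-fold fall. All 3 had both anti-MN1 libraries below both controls.

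TRIM66, a relative of TRIM28, had 18.6 and 19.4 CPM in anti-MN1 libraries, against 27.6 and 26.0 CPM in control libraries, a 1.41-fold fall. TRIM37, a regulator of centrosome assembly, had 75.9 and 83.8 CPM in anti-MN1 libraries and 104 and 101 CPM in control libraries, a 1.29-fold fall (edgeR adjusted p = 2.05e-09). It was the most abundant member to fall. The membrane-anchored genes TRIM59 and TRIM13 fell less. TRIM59 had 11.3 and 12.5 CPM in anti-MN1 libraries and 14.1 and 16.7 CPM in control libraries, and TRIM13 had 11.8 and 10.2 CPM in anti-MN1 libraries against 14.4 and 13.3 CPM in control libraries. Windows in other genes made up 52.5% of the TRIM59 transcript, and both calls were lost with DESeq2. TRIM59 also lost its call without anti-MN1 replicate 1 (-0.30) or control replicate 2 (-0.25), and TRIM13 without anti-MN1 replicate 2 (-0.23), control replicate 1 (-0.27) or control replicate 2 (-0.39).

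TRIM2, an NHL repeat gene of neurons, fell 1.21-fold with overlapping groups, at 23.8 and 29.1 CPM in anti-MN1 libraries and 35.4 and 28.9 CPM in control libraries. Its call was lost with DESeq2, without anti-MN1 replicate 1 (-0.14 on the log2 scale) and without control replicate 1 (-0.12).

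The largest falls by fold were fitted for 2 scarce genes of the primate TRIM clusters, which were tested only because the control libraries reached the count minimum. TRIM49C had 0.640 and 0.452 CPM in anti-MN1 libraries, against 2.61 and 2.14 CPM in control libraries, a 4.29-fold fall (edgeR adjusted p = 3.05e-05). TRIM48 had 0.448 and 0.258 CPM in anti-MN1 libraries and 1.43 and 0.753 CPM in control libraries, a 3.02-fold fall (edgeR adjusted p = 0.0204). The controls of TRIM48 differed almost as much as the groups did, and its call was lost with DESeq2. It was lost too without control replicate 1 (log2 -1.07), anti-MN1 replicate 1 (-2.03) or anti-MN1 replicate 2 (-1.25). Windows in other genes made up 84.2% of the TRIM49C and 31.2% of the TRIM48 transcript, so reads may be shared with their copies.

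By domain class, the 5 members placed as RING-less (TRIM14, TRIM16, TRIM16L, TRIM29 and TRIM44) rose, with a median log2 fold change of 0.44. TRIM66, placed here by its PHD finger and bromodomain, is often listed as lacking a RING too, and it fell. The call of TRIM44 was lost under upper-quartile scaling and with DESeq2. Summed, the 5 stood at 653 and 654 CPM in anti-MN1 libraries, against 488 and 464 CPM in control libraries. TRIM16L and TRIM44 averaged over 100 CPM, where 51.1% of protein-coding genes rose, and the other 3 lay at 20 to 100 CPM, where 35.5% rose. Of 26 tested genes placed as PRY-SPRY, 6 rose and 6 fell, with a median of -0.07, beside 23.7% and 21.6% of all tested genes. TRIM14, TRIM16 and TRIM16L also end in a PRY-SPRY domain but were placed as RING-less only, so their rises are not in that count. The contrast between these classes depends on this placement. Of the 4 PHD-bromodomain genes, which act on chromatin, TRIM28 rose and TRIM66 fell. TRIM24 and TRIM33 stood at 0.07 and 0.09 on the log2 scale, with intervals of -0.09 to 0.23 and -0.00 to 0.19. Of the 3 tested NHL repeat genes, only TRIM2 passed. Both membrane-anchored genes fell. Of the 3 tested genes with a COS box and FN3 domain, TRIM46 fell and TRIM9 and TRIM36 did not pass.

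**Figure D3:**
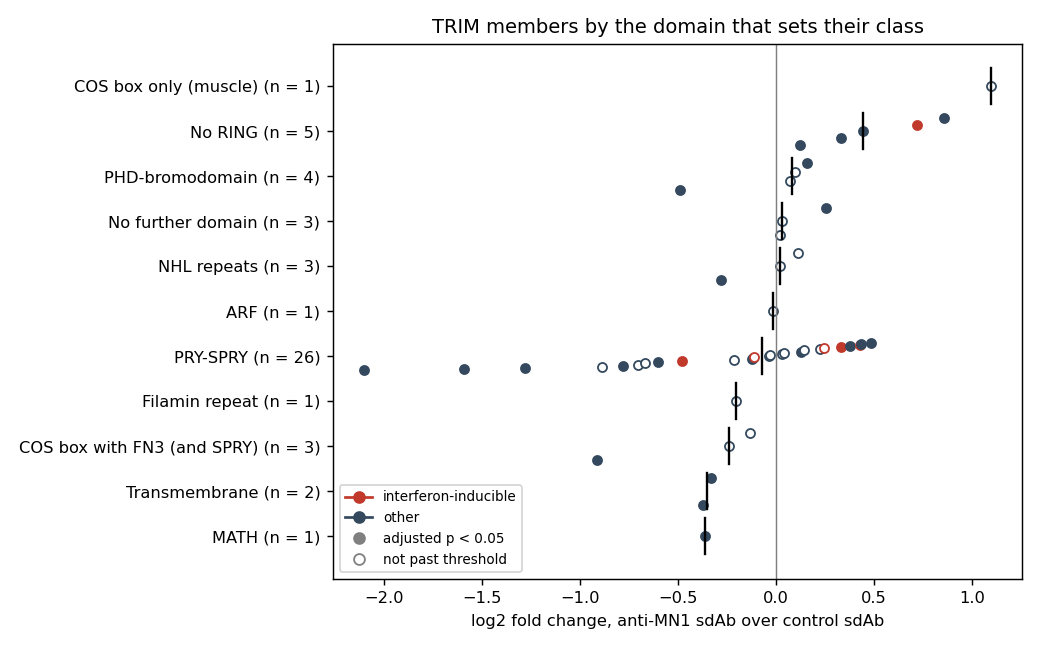
The log2 fold change of each tested TRIM gene is plotted by domain class, with a black bar at the class median and the number of genes beside each name. The 5 genes placed as RING-less lie between 0.12 and 0.85, and the 26 genes placed as PRY-SPRY spread from -2.10 to 0.48.

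Compared per kilobase of exon, TRIM28 was the most highly expressed member, at 70.5 CPM per kb in anti-MN1 libraries and 63.2 CPM per kb in control libraries. TRIM16L came next, at 47.8 CPM per kb in anti-MN1 libraries against 26.5 in control libraries. TRIM14 ranked 4 in anti-MN1 libraries at 18.4 CPM per kb and 10 in control libraries at 11.2 CPM per kb. TRIM37 ranked 7 at 14.6 CPM per kb in anti-MN1 libraries and 3 at 18.7 CPM per kb in control libraries. TRIM54, a muscle gene, was lowest of the tested members in control libraries, at 0.181 CPM per kb. Its log2 fold change of 1.10 did not pass (edgeR adjusted p = 0.094), with levels of 1.09 and 1.10 CPM in anti-MN1 libraries and 0.248 and 0.753 CPM in control libraries.

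The 25 tested members that did not pass ranged from -0.89 (TRIM43B) to 1.10 (TRIM54) on the log2 scale. Precision differed widely among them. For TRIM56, a gene of the STING and double-stranded RNA responses, at 105 and 98.4 CPM in anti-MN1 libraries and 103 and 96.0 CPM in control libraries, the interval ran from -0.07 to 0.13. For TRIM17, at 1.92 and 3.55 CPM in anti-MN1 libraries and 3.16 and 2.43 CPM in control libraries, it ran from -0.61 to 0.55, so a change of modest size was not detectable at this depth.

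Genes that work with the family were set beside it, in lists chosen with earlier results of these data known. The counts for these lists are thus descriptions only. Over these lists 26 of 68 tested genes rose and 9 fell (38.2% and 13.2%), beside 23.7% and 21.6% of all tested genes and 28.4% and 22.2% of protein-coding genes. Under upper-quartile scaling 14 rose and 16 fell, beside 17.5% and 28.4% of all tested genes. The background given for each list is not matched for level. Among protein-coding genes of 20 to 100 CPM 35.5% rose and 19.6% fell, and at 100 CPM or more 51.1% and 18.8%. Among 6 TRIM family genes under other names, 4 were tested, 2 rose and 2 did not pass. MID1, a microtubule-bound ligase with a COS box also known as TRIM18, had 85.4 and 85.8 CPM in anti-MN1 libraries, against 44.7 and 47.1 CPM in control libraries, a 1.87-fold rise. This exceeded the fold of any called TRIM-named gene that rose. PML, the organiser of nuclear bodies and TRIM19 of the family, had 32.4 and 33.3 CPM in anti-MN1 libraries and 27.8 and 28.9 CPM in control libraries, a 1.16-fold rise (edgeR adjusted p = 0.0428).

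Of 12 genes of the RIG-I pathway in which TRIM25 acts, 8 rose and 1 fell, beside 23.7% and 21.6% of all tested genes. RIGI, the RNA sensor, had 66.3 and 61.1 CPM in anti-MN1 libraries, against 15.4 and 13.6 CPM in control libraries, a 4.40-fold rise beside the 1.26-fold rise of TRIM25. IFIH1, which encodes MDA5, rose 2.89-fold beside 1.35-fold for TRIM65. ZC3HAV1, the zinc finger antiviral protein, had 175 and 178 CPM in anti-MN1 libraries and 77.0 and 74.8 CPM in control libraries. USP15, a deubiquitinase that acts on TRIM25, rose 1.27-fold. MAVS, the mitochondrial adaptor with which TRIM14 and TRIM44 work, fell 1.26-fold without overlap, at 80.5 and 72.9 CPM in anti-MN1 libraries against 97.5 and 95.7 CPM in control libraries. RNF135, a TRIM-like ligase for RIG-I, was at 0.06 on the log2 scale (edgeR adjusted p = 0.766).

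**Figure D4:**
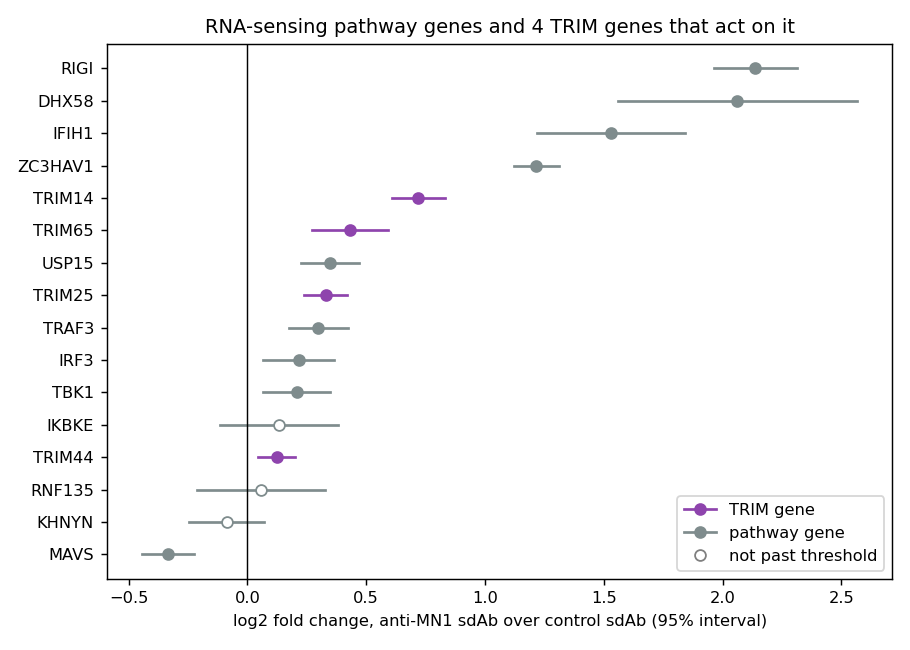
The log2 fold change with its 95% interval is plotted for 12 genes of RNA sensing (grey) and for TRIM14, TRIM25, TRIM44 and TRIM65 (purple), ordered by size, with open points for genes not past an adjusted p of 0.05. RIGI lies at 2.14, TRIM25 at 0.33 and MAVS at -0.33.

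Of 17 ubiquitin-conjugating (E2) enzymes and TAK1 complex genes, 4 rose and 1 fell, beside 23.7% and 21.6% of all tested genes. UBE2N and UBE2V2, which together build chains linked through lysine 63, rose 1.26-fold and 1.24-fold. UBE2D2 and UBE2D3, E2 enzymes used by many RING ligases, rose 1.17-fold and 1.14-fold. UBE2L6, the E2 enzyme of ISG15, fell 1.43-fold. The TAK1 gene MAP3K7 and its partners TAB1, TAB2 and TAB3 did not pass, at -0.10 to -0.01 on the log2 scale. Among 14 tested partners of TRIM28, TRIM24 and TRIM33, 5 rose and 5 fell, with the same background. Of these CBX1, CBX3, CBX5, CHD3, HDAC1, HDAC2, SMAD2 and SMAD3 averaged over 100 CPM, where 51.1% of protein-coding genes rose and 18.8% fell. The heterochromatin protein gene CBX1 fell 1.31-fold and SMAD3 fell 1.28-fold. SETDB1, the histone methyltransferase that TRIM28 recruits, was at 0.09 (edgeR adjusted p = 0.432).

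Of 9 genes of the TRIM21 and cytosolic antibody pathway, 5 rose and 1 fell, beside 23.7% and 21.6% of all tested genes. RIGI, UBE2N, UBE2V2 and UBE2W are shared with the lists above. CGAS, the DNA sensor, rose 1.69-fold and PSMD14, a proteasome subunit gene, 1.13-fold. FCGRT, the heavy chain of the neonatal Fc receptor, fell 1.78-fold, to 5.76 and 5.75 CPM in anti-MN1 libraries against 11.2 and 9.32 CPM in control libraries. VCP, the segregase that works with TRIM21, was at 492 and 483 CPM in anti-MN1 libraries and 488 and 489 CPM in control libraries. Of 15 tested genes of interferon signalling, 6 rose and 1 fell, each less than 1.5-fold, with the same background. IRF3 is among these rises and among those of the RIG-I pathway. The interferon gamma receptor genes IFNGR1 and IFNGR2 moved apart, as IFNGR1 rose 1.24-fold and IFNGR2 fell 1.29-fold. Of 6 muscle genes set beside TRIM54, TRIM55 and TRIM63, MYH3 and FBXO32 were tested, and neither passed (edgeR adjusted p = 0.347 and 0.117).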

How the data were processed

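Trizol served for RNA extraction, per the labels' protocols. The authors deposited raw read counts per gene, whole numbers with no normalization, for 58676 Ensembl identifiers. Bowtie2, HTSeq and hg38 (GRCh38) are named in the submitters' processing notes, without versions, annotation or strand setting. Coordinates and exon lengths came from GENCODE release 29, in which all identifiers were found, and current symbols from a gene name table. Domain classes were assigned from general knowledge of the family, with RING-less genes placed apart whatever domain they end in. Columns were matched to samples by the letter and number of each title.

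Counts were tested in R 4.3.3 with edgeR 4.0.16 (filterByExpr at a minimum count of 10, TMM, robust quasi-likelihood fit, 2-sided, no covariate). The procedure was also run on simulated data in which far fewer genes changed than were called here. That run therefore does not test the scaling for these data. Alternatives were other scalings and filters, DESeq2 1.42.0, limma-voom (limma 3.58.1), removal of the 20 most abundant genes, a replicate block, a test against 1.5-fold and leaving out each library. Intervals are 1.96 SE each side. Named with all values are the interferon-inducible members, MN1 and the other called members with the 10 largest rises and falls. Members and lists were chosen with earlier results of these data known. Replicates differed by more than sampling noise (chi-square per degree of freedom 2.01 for anti-MN1 and 2.29 for control) and were kept as separate samples.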

Additional observations from a re-analysis of the deposited data

How the results depend on the processing

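With DESeq2, 2338 genes were lower in place of 3789, and of the other TRIM members 6 rose and 7 fell in place of 10 and 11. Of the relatives and pathway genes, 17 rose with DESeq2 in place of 26. Under upper-quartile factors and with library totals only, 5 other members rose, and of the relatives and pathway genes 14 rose and 16 fell in place of 26 and 9. The test against 1.5-fold called 358 genes higher and 815 lower. It called 1 interferon-inducible member higher and 0 lower, and 1 other member higher and 2 lower. Of the genes placed as PRY-SPRY it called 0 higher and 2 lower, and of those placed as RING-less 2 higher. Of the relatives and pathway genes it called 5 higher and 0 lower. Without each library in turn, 0 to 1 interferon-inducible members fell, the 0 being without control replicate 2. The robust estimate was compared with a non-robust one after the data were seen (8 other members higher). With a replicate block, 9 other members rose and 11 fell, with 4147 genes higher and 3732 lower. Deviations of same-numbered libraries did not correlate (r = -0.00). With 2 libraries per group this is a single correlation. It showed no shared shift and cannot tell whether the numbers pair the samples. Of the called members, 8 of 13 higher and 7 of 12 lower kept call and direction in every setting run but the test against 1.5-fold. The cause of the lost calls was not tested. Members below 5 CPM are limited by depth.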
